A study of Mus musculus with 9 samples.

Results

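The core circadian clock genes were examined as 10 transcripts, Arntl, Clock, Npas2, Per1, Per2, Per3, Cry1, Nr1d1, Dbp and Ciart, which were chosen by symbol from the 52160 symbols of the count tables. All 10 were counted in every library and all 10 passed the filter on low counts, as did 18067 symbols in all. The libraries came from polyadenylated RNA of whole kidney from mice of 16 weeks on a C57Bl/6N background, in 3 groups of 3. Wild-type mice (WT) were C57BL/6N animals from a commercial supplier. ΔPod mice lacked Ybx1 in podocytes, which wrap the capillaries of the glomerulus. K2A mice carried Ybx1 with the exchanges K299A and K302A, encoded in exon 7, which the labels describe as a podocyte-specific mutant that cannot be secreted. Ybx1 encodes a cold shock protein that binds RNA and DNA. The labels used here do not name the promoter that drove the podocyte alleles, the sex, the litter or the time of day of collection, or which animal gave which library, so p-values measure the spread between these libraries, which may be technical. Whole kidney holds few podocytes, and most of its other cells run a clock too. In bulk tissue, fewer cells of a type and less RNA per cell cannot be told apart.

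The circadian clock is a feedback loop of transcription. ARNTL (also called BMAL1) pairs with CLOCK or with its close relative NPAS2, and the pair binds E-boxes and switches on the Per and Cry genes, Nr1d1, Dbp and Ciart. PER and CRY proteins and CIART then inhibit that pair, NR1D1 (REV-ERBα) represses Arntl, Npas2 and Clock through ROR elements, and DBP activates genes with D-boxes, among them Per genes. Over the day Arntl and Npas2 transcripts therefore run out of phase with Dbp, Per and Ciart transcripts, with Nr1d1 rising ahead of Per2 and Cry1 late. In the kidney the loop is known for daily rhythms of salt transport and of filtration.

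The control sequences of this loop can be read in the promoters of the members, taken as windows across annotated starts in RefSeq on GRCm38.p6. Some members have several such starts. The table held 13 promoters of 9 members, with Per2 missing. They were searched on both strands for the E-box CACGTG, the D-box TTATGTAA, the ROR and REV-ERB element TAGGTCA and the cyclic AMP element TGACGTCA. No letters of these matches overlapped. The 5 promoters with a match are shown because they hold the 3 kinds of element through which the members regulate each other. Capitals mark the matches.
Ciart (chr3:95882179-95882478, strand -): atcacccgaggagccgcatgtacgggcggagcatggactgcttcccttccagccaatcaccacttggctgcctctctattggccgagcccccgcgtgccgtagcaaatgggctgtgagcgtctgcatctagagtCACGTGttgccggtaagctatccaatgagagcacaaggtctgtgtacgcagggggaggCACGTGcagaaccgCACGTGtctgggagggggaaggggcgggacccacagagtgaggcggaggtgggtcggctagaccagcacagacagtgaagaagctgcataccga
Per1 (chr11:69098699-69098998, strand +): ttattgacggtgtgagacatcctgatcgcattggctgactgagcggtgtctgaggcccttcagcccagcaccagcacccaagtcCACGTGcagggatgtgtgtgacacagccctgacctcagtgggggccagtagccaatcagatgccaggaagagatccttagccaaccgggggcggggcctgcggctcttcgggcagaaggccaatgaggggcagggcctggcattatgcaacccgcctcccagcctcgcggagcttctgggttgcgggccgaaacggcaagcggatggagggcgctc
Cry1 (chr10:85185005-85185304, strand -): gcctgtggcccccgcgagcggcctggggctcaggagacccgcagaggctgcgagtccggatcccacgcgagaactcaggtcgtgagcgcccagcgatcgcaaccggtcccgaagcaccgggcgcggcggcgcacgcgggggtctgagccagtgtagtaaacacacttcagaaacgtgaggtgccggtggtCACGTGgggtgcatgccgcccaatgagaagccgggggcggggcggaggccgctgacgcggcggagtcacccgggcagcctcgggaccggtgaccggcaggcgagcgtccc
Per3 (chr4:151044616-151044915, strand -): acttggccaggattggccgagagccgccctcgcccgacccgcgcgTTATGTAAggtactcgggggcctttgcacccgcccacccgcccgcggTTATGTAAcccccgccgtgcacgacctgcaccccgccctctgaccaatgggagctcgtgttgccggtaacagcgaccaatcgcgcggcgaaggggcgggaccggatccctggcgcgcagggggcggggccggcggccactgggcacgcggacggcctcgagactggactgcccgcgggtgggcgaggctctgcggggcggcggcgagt
Arntl (chr7:113207261-113207560, strand +): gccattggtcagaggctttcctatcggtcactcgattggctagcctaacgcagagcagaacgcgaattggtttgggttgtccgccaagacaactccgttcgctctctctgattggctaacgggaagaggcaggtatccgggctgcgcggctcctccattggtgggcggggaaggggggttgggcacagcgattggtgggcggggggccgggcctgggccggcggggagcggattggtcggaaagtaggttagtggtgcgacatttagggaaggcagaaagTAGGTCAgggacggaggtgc
Counted in bases from the start that each window spans, Ciart held 3 E-boxes, at -116, -58 and -44. Per1 held 1 at -166 and Cry1 held 1 at -60. The Per1 window lies inside the gene as GENCODE draws it, from 69095217 to 69109960. An E-box of these letters stood in 7.15% of the 32851 promoters of the table. Per3 held 2 D-boxes, at -205 and -158, where 0.938% of all promoters held any. Arntl held 1 ROR and REV-ERB element, at 30, where 2.61% of all promoters did. None of the 13 held the cyclic AMP element, found in 1.79% of all promoters. A match describes these letters and is no measure of binding, and elements outside this window were not searched.

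The libraries held 30777142 to 46882253 counts. Levels are counts scaled to library size with TMM factors (CPM). Ybx1 was at 1190, 1585 and 1185 CPM in WT 1, WT 2 and WT 3, at 1167, 881 and 605 CPM in ΔPod 1, ΔPod 2 and ΔPod 3, and at 1078, 1152 and 554 CPM in K2A 1, K2A 2 and K2A 3. Its log2 fold changes of -0.58 in ΔPod (SE 0.38) and -0.51 in K2A (SE 0.38) did not pass the edgeR test. Other cells of the kidney transcribe Ybx1 too, so this checks the genotypes only weakly. The libraries also differed within groups. In WT 1, WT 3, ΔPod 3 and K2A 3 (called the long class below) longer transcripts had the higher counts, and in the other 5 (the short class) shorter transcripts did. Kidney markers (8 of 8 counted in every library, among them Lrp2 and Umod) summed to 11416 to 17596 CPM in the long class and 2665 to 8606 CPM in the short class. Not every marker followed these sums. Aqp2 was at 654 and 609 CPM in K2A 1 and K2A 2, and at 233 to 515 CPM in the long class. Slc34a1 was at 2459 CPM in K2A 3, below its 4091 CPM in WT 2. Of 5 sex-linked genes, Xist was at 0 counts in the WT libraries, where Ddx3y, Uty, Kdm5d and Eif2s3y from the Y chromosome summed to 94.4 to 119 CPM. In the mutant libraries Xist was at 17.0 to 331 CPM and each of the Y-linked genes at 0.341 CPM or less, so genotype and this sex-linked pattern cannot be told apart in any comparison with WT.

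**Figure D1:**
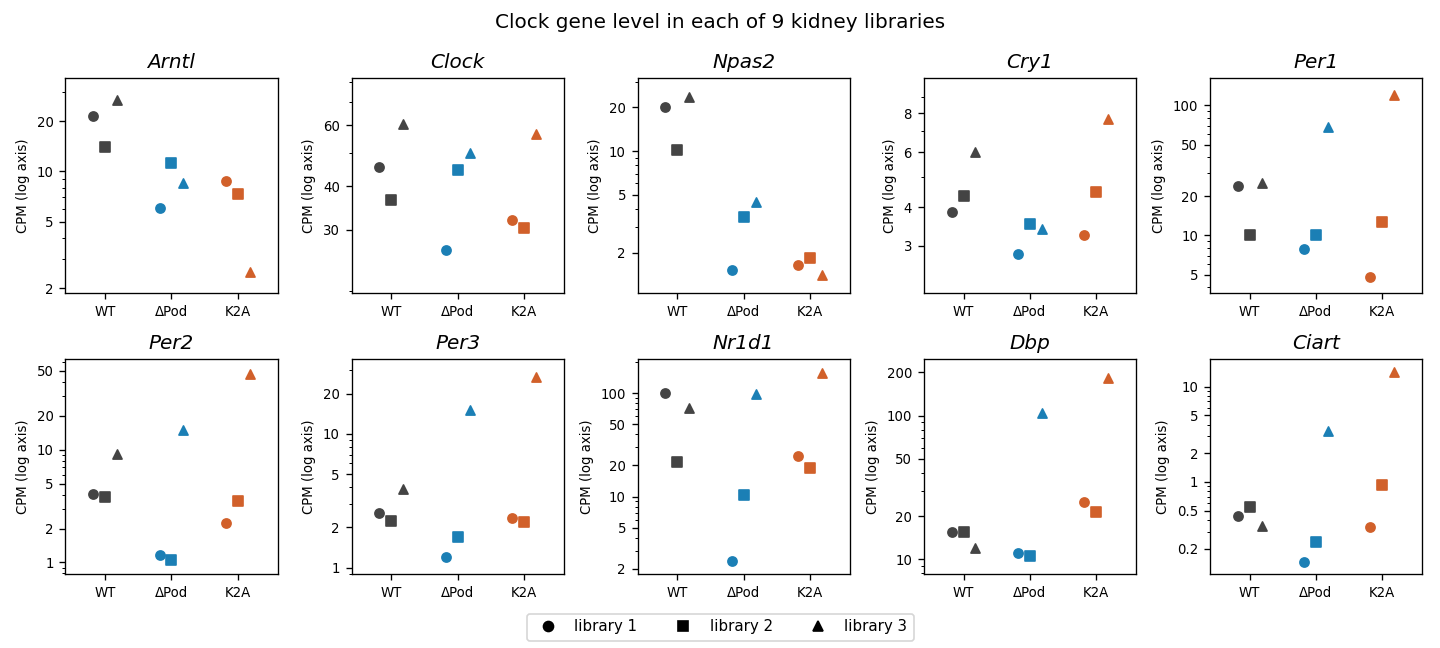
Level of each clock gene in each library, as CPM on a log axis whose range differs between panels. Circles, squares and triangles are libraries 1, 2 and 3 of each group. Npas2 and Arntl are highest in the 3 WT libraries, and Dbp, Ciart and the Per genes are highest in ΔPod 3 and K2A 3.

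Of the activators of the loop, Npas2 and Arntl separated WT from both mutants and Clock did not. Npas2 passed the test in K2A, at 10.96-fold lower, and Arntl in neither mutant. Npas2 was at 20.04, 10.1 and 23.4 CPM in WT, then at 1.52, 3.54 and 4.43 CPM in ΔPod libraries, and at 1.64, 1.84 and 1.40 CPM in K2A. The lowest WT library lay above the highest of the 6 mutant libraries, while the K2A and ΔPod ranges overlapped. WT averaged 17.9 ± 6.90 CPM, ΔPod averaged 3.16 ± 1.49 CPM and K2A averaged 1.63 ± 0.217 CPM (SD, n = 3 each). In K2A the transcript fell by 3.45 on the log2 scale (SE 0.50, edgeR adjusted p = 0.0202), and in ΔPod its log2 fold change was -2.49 (SE 0.48, edgeR adjusted p = 0.0564), which did not pass. The K2A call was lost whenever any 1 of the 6 WT and K2A libraries was left out, with adjusted p = 0.0518 to 0.122 (edgeR) and log2 fold changes of -3.75 to -3.25. The ΔPod value passed without ΔPod 3 (-2.84, adjusted p = 0.0439 in edgeR).

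Arntl, the partner that CLOCK and NPAS2 share, was at 21.4, 14.0 and 26.7 CPM in WT, then at 6.00, 11.3 and 8.48 CPM in ΔPod libraries, and at 8.77, 7.35 and 2.49 CPM in K2A. Every mutant library lay below every WT library, and K2A 3 was the lowest of all 9. The log2 fold change was -1.27 in ΔPod (SE 0.50, edgeR adjusted p = 0.333) and -1.74 in K2A (SE 0.50, edgeR adjusted p = 0.211), and neither passed. DESeq2 called Arntl in K2A (-1.82, adjusted p = 0.0137). Clock did not separate the groups as Arntl and Npas2 did. Over the 9 libraries Clock correlated with Arntl at a Pearson's r of 0.18 and with Npas2 at 0.50 in log2 CPM. Without ΔPod 3 and K2A 3, Clock correlated with them at 0.93 and 0.85. It was at 45.4, 36.6 and 60.5 CPM in WT, then at 26.3, 44.5 and 49.9 CPM in ΔPod libraries, and at 31.9, 30.4 and 56.7 CPM in K2A, with overlapping groups and log2 fold changes of -0.24 (SE 0.38) and -0.26 (SE 0.38). The ratio of Npas2 to Clock counts was 0.442, 0.277 and 0.387 in the WT libraries and 0.0247 to 0.0889 in the 6 mutant libraries.

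The repressors and outputs of the loop did not separate the groups in that way, but split the mutant libraries among themselves. Dbp, which encodes a transcription factor of D-boxes and is a direct output of the loop, was at 15.6, 15.6 and 11.9 CPM in WT. It was at 11.1, 10.6 and 105 CPM in ΔPod and at 25.3, 21.5 and 183 CPM in K2A. ΔPod 3 and K2A 3 stood apart from the other libraries of their groups, and the K2A libraries all lay above the WT libraries. The log2 fold change was 1.55 in ΔPod (SE 1.08, edgeR adjusted p = 0.487) and 2.41 in K2A (SE 1.12, edgeR adjusted p = 0.506), and neither passed. In both mutants the SD of the CPM values, 54.1 and 92.2, was larger than the difference of the mean from WT. Without ΔPod 3 the ΔPod value was -0.44, and without K2A 3 the K2A value was 0.66.

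Ciart, whose product inhibits the ARNTL pair, had the widest range of the members. It was at 0.444, 0.544 and 0.346 CPM in WT, then at 0.145, 0.234 and 3.39 CPM in ΔPod libraries, and at 0.341, 0.919 and 14.4 CPM in K2A. K2A 3 held 594 counts, against 11 in K2A 1 and 31 in K2A 2, and ΔPod 3 held 168 against 4 in ΔPod 1 and 10 in ΔPod 2. The lowest of these are small counts with a large counting error. Its log2 fold change was 1.51 in ΔPod (SE 1.49) and 3.55 in K2A (SE 1.58, edgeR adjusted p = 0.480), and neither passed. Without ΔPod 3 the first became -1.21, and without K2A 3 the second became 0.46.

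The 3 Per genes encode the inhibitory PERIOD proteins. Per1 was at 24.0, 10.05 and 25.1 CPM in WT, then at 7.92, 10.1 and 68.6 CPM in ΔPod libraries, and at 4.80, 12.6 and 119.7 CPM in K2A. Per2 was at 4.02, 3.81 and 9.07 CPM in WT, then at 1.16, 1.05 and 14.8 CPM in ΔPod libraries, and at 2.23, 3.50 and 46.97 CPM in K2A. Per3 was at 2.58, 2.23 and 3.88 CPM in WT, then at 1.19, 1.69 and 15.1 CPM in ΔPod libraries, and at 2.36, 2.19 and 26.8 CPM in K2A. For each of them K2A 3 was highest and ΔPod 3 second, and all of the groups overlapped. Their log2 fold changes were 0.55, 0.02 and 1.05 in ΔPod and 1.21, 1.64 and 1.85 in K2A, each with an SE above 1, and none passed. Without ΔPod 3 or K2A 3 all of these values were negative, at -1.17, -2.39 and -1.04 for Per1, Per2 and Per3 in ΔPod and at -1.23, -1.02 and -0.40 in K2A.

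Nr1d1, the repressor that acts on Arntl and Npas2, was the member that varied most within WT. It was at 101, 21.4 and 72.1 CPM in WT, then at 2.39, 10.4 and 97.2 CPM in ΔPod libraries, and at 24.8, 18.7 and 158 CPM in K2A. High Nr1d1 was thus found in WT 1 and WT 3 beside high Arntl, and in ΔPod 3 and K2A 3 beside low Arntl. Its log2 fold changes were -0.82 in ΔPod (SE 1.29) and 0.05 in K2A (SE 1.29). Without ΔPod 3 and K2A 3 in turn they were -3.37 and -1.62. Cry1, an inhibitor that follows the other repressors in time, had the narrowest range of the repressors. It was at 3.85, 4.35 and 6.03 CPM in WT, then at 2.82, 3.54 and 3.41 CPM in ΔPod libraries, and at 3.25, 4.48 and 7.67 CPM in K2A, with log2 fold changes of -0.54 (SE 0.37) and 0.11 (SE 0.37). The 3 ΔPod libraries lay below the 3 WT libraries for Cry1, and the K2A range held the WT range.

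Set per kilobase of exon, the members kept a wide range of levels. In WT, Nr1d1 had the highest mean at 21.0 CPM per kilobase, followed by Dbp at 4.80, Npas2 at 3.73, Per1 at 3.50, Clock at 3.46 and Arntl at 2.75 CPM per kilobase. Cry1 was at 1.42, Per2 at 0.962, Per3 at 0.302 and Ciart at 0.197 CPM per kilobase. The SD of Nr1d1 over the WT libraries was 13.0 CPM per kilobase, and the neighbours from Dbp down to Arntl did not differ beyond their SDs of 0.705 to 1.49. In K2A, Dbp came first at 25.6 ± 30.8 CPM per kilobase (SD, n = 3) and Npas2 last at 0.340 ± 0.0454 CPM per kilobase.

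**Figure D2:**
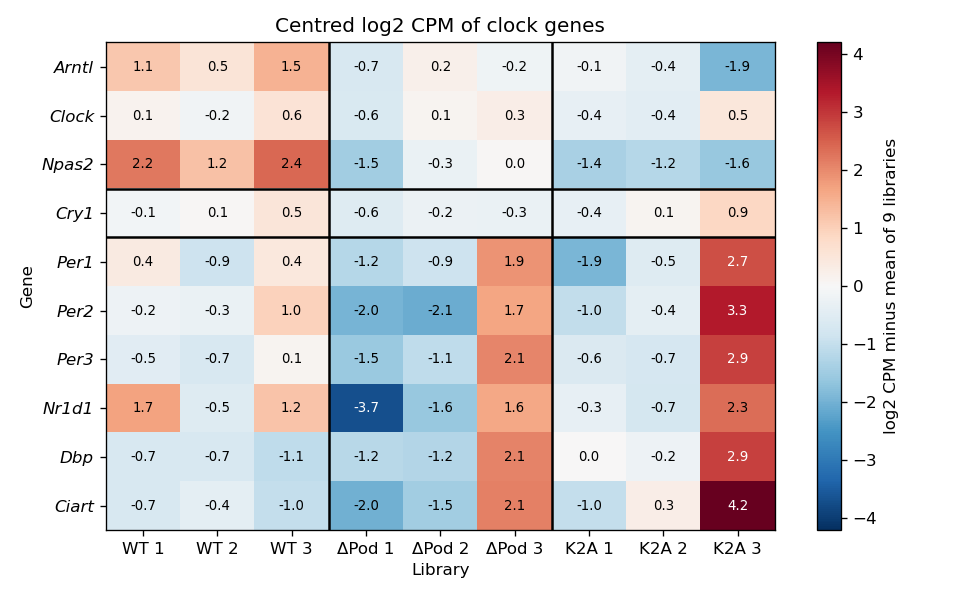
Centred log2 CPM of the members, each the log2 CPM minus the mean of the 9 libraries for that gene, with activators above, Cry1 between the lines and the other repressors and outputs below. Red is above and blue below the mean of that gene. K2A 3 and ΔPod 3 are red in the lower block, WT is red in the rows of Arntl and Npas2, and ΔPod 1 is blue throughout.

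The pattern of activators and repressors was then described in each library. Members were centred on the log2 scale over the 9 libraries, and the mean of Arntl, Clock and Npas2 was set against the mean of Per1, Per2, Per3, Nr1d1, Dbp and Ciart, called the repressor and output set. That set was drawn from the known targets of the ARNTL pair and not from the promoter search, and Cry1 was kept apart because it peaks later. With this centring the 9 values of a gene sum to 0, so high values in some libraries lower those of the others, and a value says only where a library lies relative to the rest. In WT 1, WT 2 and WT 3 the activators were at 1.16, 0.53 and 1.48 and the repressor and output set at 0.01, -0.57 and 0.11. The differences (that set minus activators) were -1.16, -1.10 and -1.37. ΔPod 3 had activators at 0.05 and the other set at 1.91 (difference 1.86), and K2A 3 had activators at -1.02 and the other set at 3.05 (difference 4.07). These were the highest differences of the 9 libraries, and the WT libraries had the highest activators. Over the 9 libraries Arntl correlated with the genes of that set at a Pearson's r of -0.67 (Dbp) to 0.07 (Nr1d1) in log2 CPM. Without ΔPod 3 and K2A 3, r was 0.73 to 0.84 for the Per genes and Nr1d1, 0.16 for Ciart and -0.24 for Dbp.

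The other 4 mutant libraries lay below the mean of the 9 libraries in the repressor and output set, without the high activators of WT. For that set K2A 2 lay within the WT range, and ΔPod 1, ΔPod 2 and K2A 1 lay below it. ΔPod 1 was at -0.93 for activators and -1.93 for the repressor and output set, and ΔPod 2 at 0.02 and -1.38. K2A 1 was at -0.62 and -0.81, and K2A 2 at -0.68 and -0.38. Their differences were -0.99, -1.40, -0.19 and 0.29, so the 2 ΔPod libraries lay in or near the WT range of the difference and the 2 K2A libraries between WT and ΔPod 3. Cry1, centred in the same way, was highest in K2A 3 at 0.87 and in WT 3 at 0.52, and lowest in ΔPod 1 at -0.56. Ratios of counts need no centring and no scaling between libraries, but the length classes can still shift them. The exons of Dbp and Nr1d1 (2993 and 3077 bases) are shorter than those of Arntl (7523 bases). The ratio of Dbp to Arntl was 0.447 to 1.11 in WT, 1.86, 0.938 and 12.3 in ΔPod 1, ΔPod 2 and ΔPod 3, and 2.88, 2.92 and 73.4 in K2A 1, K2A 2 and K2A 3. The ratio of Nr1d1 to Arntl was 4.70, 1.53 and 2.698 in WT, 0.398, 0.919 and 11.5 in ΔPod 1, ΔPod 2 and ΔPod 3, and 2.83, 2.55 and 63.2 in K2A 1, K2A 2 and K2A 3. Both ratios were highest in K2A 3 and next in ΔPod 3, but they ordered the other libraries differently. For Nr1d1, ΔPod 1 and ΔPod 2 lay below every WT library and K2A 1 and K2A 2 within the WT range. For Dbp, K2A 1, K2A 2 and ΔPod 1 lay above every WT library. These are short-class libraries, and within WT the Dbp ratio was also highest in the short-class library, WT 2, at 1.11. ΔPod 2, also of the short class, lay within the WT range at 0.938. K2A 3 and ΔPod 3, with the highest ratios, are of the long class. The part of the length class in these ratios was not tested.

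**Figure D3:**
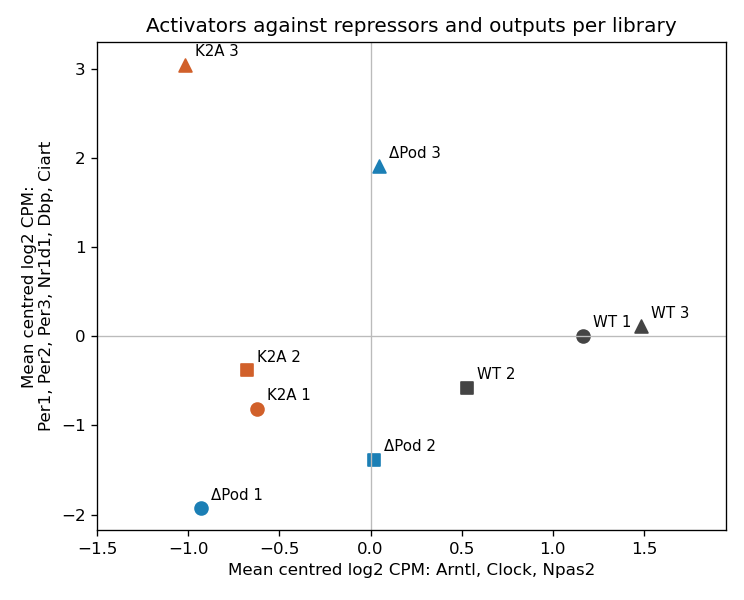
Mean centred log2 CPM of the activators (horizontal) and of Per1, Per2, Per3, Nr1d1, Dbp and Ciart (vertical), with 1 point per library. WT libraries lie to the right, ΔPod 3 and K2A 3 at the top, and ΔPod 1, ΔPod 2, K2A 1 and K2A 2 at the bottom left to centre.

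Within both mutant groups the 6 members of the repressor and output set were high together in 1 library. In ΔPod 3 all 6 (Per1, Per2, Per3, Nr1d1, Dbp and Ciart) were at least 4-fold above both other ΔPod libraries on the log2 CPM scale, as were 5.32% of all tested genes. In K2A 3 the same 6 were at least 4-fold above both other K2A libraries, as were 8.02% of all tested genes. None of Arntl, Clock, Npas2 and Cry1 reached that size, and no member was 4-fold below both others, as were 4.82% of all tested genes in ΔPod 3 and 5.06% in K2A 3. In WT 3 no member was 4-fold above or below both other WT libraries, beside 0.0166% of all tested genes in each direction. The ratio of CPM in K2A 3 to the mean of K2A 1 and K2A 2 was 22.8 for Ciart, 16.4 for Per2, 13.7 for Per1, 11.8 for Per3, 7.83 for Dbp and 7.24 for Nr1d1. In ΔPod it was 17.9 for Ciart, 15.3 for Nr1d1, 13.4 for Per2, 10.5 for Per3, 9.63 for Dbp and 7.63 for Per1. The log2 range of Ciart over the K2A libraries, 5.19, was the 25th largest of the 18067 tested genes, and that of Nr1d1 over the ΔPod libraries, 5.32, was the 72nd largest. These are single libraries against pairs, with no test.

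**Figure D4:**
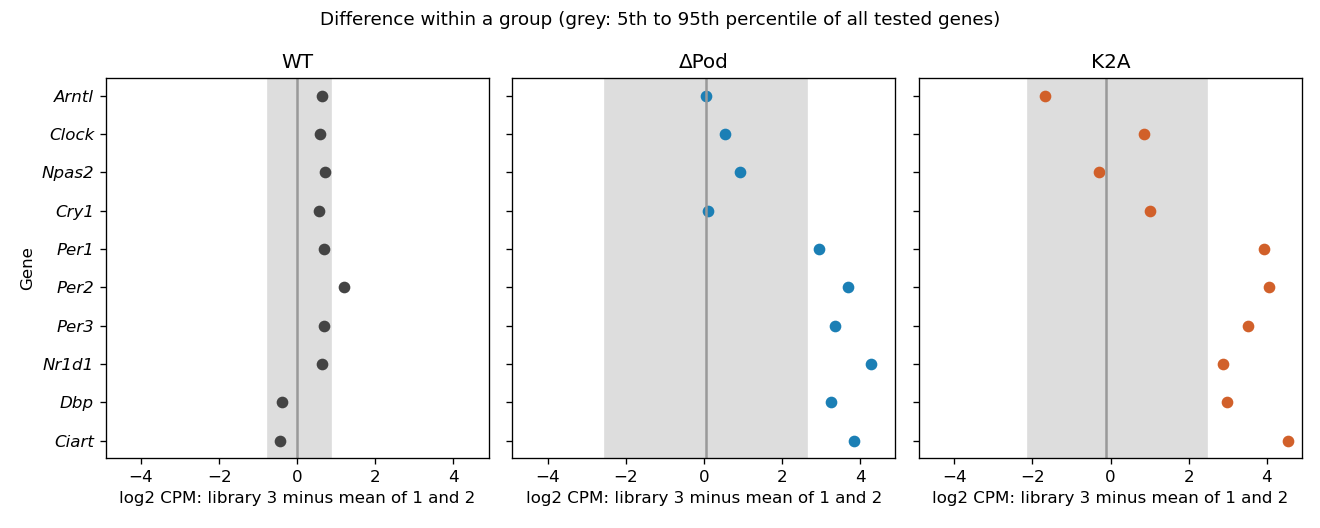
Log2 CPM of library 3 minus the mean of libraries 1 and 2, for each member in each group. Points are members, the grey band spans the 5th to 95th percentile of all tested genes and the grey line is their median. In ΔPod and K2A Per1, Per2, Per3, Nr1d1, Dbp and Ciart lie above the band and the other 4 within it.

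Other properties of the libraries divided the mutants along the same line. Ribosomal protein genes took 1.11% of counts in ΔPod 3 and 0.975% in K2A 3, against 3.77 to 7.77% in the other 4 mutant libraries and 1.07 to 2.39% in WT. The 6 fat cell genes (Adipoq, Plin1, Cfd, Ucp1, Lep and Cidec) summed to 5.98 to 602 CPM in the other 4 and to 0.504 CPM in ΔPod 3 and 2.81 CPM in K2A 3, with Adipoq at 0 in both. In WT they summed to 0.229 to 0.395 CPM. Urothelium genes (5 of 5 counted in the 4) summed to 8.56 to 53.5 CPM there, to 0.484 CPM in ΔPod 3 (3 of 5 at 0), to 5.64 CPM in K2A 3 and to 4.55 to 8.21 CPM in WT. Immune genes (5 of 5 counted in every library) summed to 82.4 to 203 CPM in the 4, to 31.1 and 15.4 CPM in ΔPod 3 and K2A 3, and to 26.8 to 55.4 CPM in WT. Adrenal genes summed to at most 0.992 CPM in any library. The part of these values in the clock values was not tested.

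The differences were therefore also taken within the length classes, where each has a single library on at least 1 side and no test was made. In the long class, ΔPod 3 and K2A 3 were set against WT 1 and WT 3. On the log2 CPM scale Npas2 differed by -2.27 and -3.90, Arntl by -1.49 and -3.24, Dbp by 2.93 and 3.74, Ciart by 2.95 and 5.02, and Per3 by 2.24 and 3.06. Per1 differed by 1.48 and 2.28, Per2 by 1.29 and 2.95, Nr1d1 by 0.19 and 0.89, Cry1 by -0.50 and 0.66, and Clock by -0.071 and 0.11. Npas2 and Arntl were thus lower, and Dbp, Ciart and the Per genes higher, than in WT libraries of the same class. In K2A 3, 5 members (Per1, Per2, Per3, Dbp and Ciart) were at least 2-fold above both WT libraries, beside 5.72% of all tested genes, and 2 (Arntl and Npas2) at least 2-fold below, beside 4.53%. In ΔPod 3 the counts were 4 (all of those but Per2), beside 4.84%, and the same 2, beside 3.6%.

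In the short class, ΔPod 1 and ΔPod 2 were set against WT 2, and so were K2A 1 and K2A 2. Npas2 differed by -2.10 and -2.51 and Arntl by -0.76 and -0.80. Dbp differed by -0.52 and 0.58, and both of those K2A libraries lay above WT 2 for it. Per1 differed by -0.17 and -0.36, Per2 by -1.74 and -0.44, Per3 by -0.63 and 0.02, Nr1d1 by -2.09 and 0.01, and Ciart by -1.32 and 0.05. In ΔPod, 4 members (Npas2, Per2, Nr1d1 and Ciart) lay at least 2-fold below WT 2, beside 4.58% of all tested genes, and in K2A 1 did (Npas2), beside 6.53%. No member lay 2-fold above WT 2 in either, beside 7.04% and 7.2%. Npas2 and Arntl were thus lower in both classes. Per1, Per3, Dbp and Ciart were at least 2-fold higher in the long class in both mutants, and in neither mutant in the short class.

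Over the 3 comparisons few members passed. In ΔPod against WT, edgeR called 0 of the 10 members, beside 0.985% of all tested genes (0.399% higher and 0.587% lower), while 2 (Arntl and Npas2) had an unadjusted p below 0.05, beside 13.8%, and DESeq2 called 1, Npas2, beside 5.52%. Members whose groups did not overlap numbered 3, all lower in ΔPod (Arntl, Npas2 and Cry1), beside 9.47% of all tested genes lower, 8.73% higher and 18.2% in either direction. In K2A against WT, edgeR called 1 of 10, Npas2, lower, beside 0.847% in either direction, 0.526% lower and 0.321% higher, and 2 (Arntl and Npas2) had an unadjusted p below 0.05, beside 10.6%. DESeq2 called 2, Arntl and Npas2, beside 5.03%. Groups did not overlap for Arntl and Npas2, lower, beside 9.18%, and for Dbp, higher, beside 11%, with 20.1% in either direction. In K2A against ΔPod, edgeR called 0 of 10, beside 0% of all tested genes, with 0 at an unadjusted p below 0.05, beside 2.01%, and DESeq2 called 0, beside 0.105%. No member separated those groups, beside 3.51% of all tested genes higher, 1.61% lower and 5.11% in either direction. DESeq2 gave no adjusted p for Per2, Per3 and Dbp in any comparison. The median log2 fold change of the members was -0.11 in ΔPod, 0.66 in K2A and 0.73 between K2A and ΔPod, beside 0.08, 0.09 and -0.01 over all tested genes. Both mutants were compared with the same WT libraries.

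**Figure D5:**
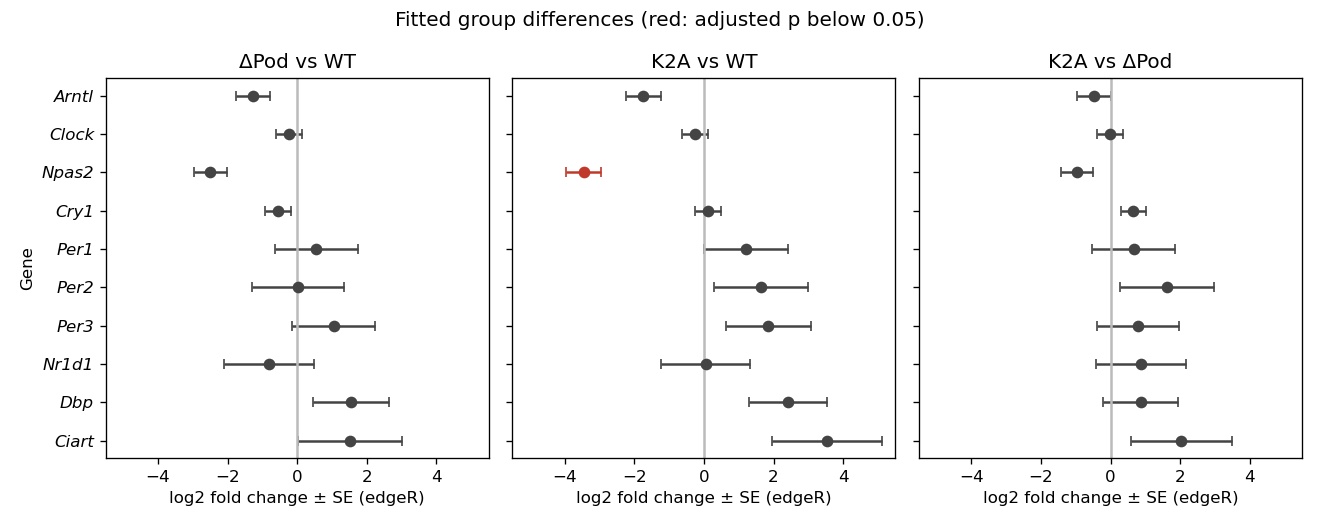
Fitted log2 fold changes of the members with their SEs from edgeR in the 3 comparisons. Points are genes, bars are SEs, and red marks the adjusted p below 0.05. Npas2 in K2A against WT is the 1 red point, at -3.45, and the SEs of the Per genes, Nr1d1, Dbp and Ciart exceed 1.

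K2A and ΔPod differed most in Ciart (log2 fold change 2.03, SE 1.46), Per2 (1.62, SE 1.349) and Npas2 (-0.96, SE 0.46), all with an edgeR adjusted p of 1. A p that misses the threshold does not show that the mutants are alike. Libraries of the same number deviated together in the 2 mutant groups, so the differences were also read within those pairs. The labels do not say that the libraries of a pair belong together, and the pairing was chosen from these data. In both mutants libraries 1 and 2 are of the short class and library 3 of the long class, which could give the same correlation. On the log2 CPM scale K2A was above ΔPod in pairs 1, 2 and 3 by 1.18, 1.02 and 0.81 for Dbp, by 0.99, 1.76 and 2.07 for Ciart, and by 0.92, 1.68 and 1.66 for Per2. Per3, Nr1d1 and Cry1 were also higher in K2A in all 3 pairs, by 0.37 to 0.95, 0.70 to 3.35 and 0.20 to 1.16. In all, 6 of the 10 members were higher in every pair, beside 14.9% of all tested genes, and 0 were lower in every pair, beside 14.6%. These members varied together, so they are not separate results. Other pairs can give another order, since Cry1 was at 3.25 CPM in K2A 1 and at 3.54 CPM in ΔPod 2. With the replicate number as a block, edgeR still called none of the 10, with log2 fold changes of 0.96 for Dbp, 1.82 for Ciart and 1.49 for Per2 (adjusted p = 0.985 each). Without K2A 3 the values of Ciart and Per2 were -1.03 and -1.01, and without ΔPod 3 they were 4.75 and 4.01.

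Some member counts can include reads of a neighbour or lose reads where exons overlap. The strand setting of the counting is not given in the sources used here. The exons of Nr1d1 (chr11, 98767932 to 98775333 in mm10) overlap those of Thra on the other strand by 263 bases, and those of Dbp (chr7, 45705088 to 45710203) overlap those of Sphk2 on the other strand by 539 bases. In K2A 3, Nr1d1 had 6511 counts and Thra 2660, and Dbp had 7565 counts and Sphk2 1781. Thra was at 33.6 to 95.8 CPM and Sphk2 at 9.77 to 66.8 CPM over the 9 libraries, and neither was higher in ΔPod 3 and K2A 3 than in every WT library. Arntl (chr7, 113207465 to 113314126) shares 33 exonic bases with an antisense transcript.

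The other genes of the pathway were taken from a list of 30, all of which were tested. In edgeR 0 of 30 passed in ΔPod against WT, beside 0.985% of all tested genes. There 3 had an unadjusted p below 0.05, beside 13.8%, and DESeq2 called 1, Nr1d2, beside 5.52%. In K2A against WT 0 passed as well, beside 0.847%, with 1 at an unadjusted p below 0.05, beside 10.6%, and 0 by DESeq2, beside 5.03%. Between the mutants 0 passed, beside 0%, with 0 at an unadjusted p below 0.05, beside 2.01%, and 0 by DESeq2, beside 0.105%. The median log2 fold changes of the 30 were -0.08, 0.08 and 0.20. In ΔPod 3, 21 of the 30 were above both other ΔPod libraries, and in K2A 3, 23 were above both other K2A libraries. The share of all tested genes with that order was not counted, so these counts are no result about the list. In log2 CPM, library 3 minus the mean of 1 and 2 had a 75th percentile of 1.19 (ΔPod) and 0.94 (K2A) over tested genes. Cry2, which encodes the second cryptochrome, was at 10.7, 5.04 and 9.93 CPM in WT, then at 1.27, 3.68 and 26.0 CPM in ΔPod libraries, and at 2.603, 2.67 and 31.9 CPM in K2A. Noct, a rhythmic phosphatase gene also called nocturnin, was at 6.04 to 13.05 CPM in WT, then at 4.92, 10.8 and 35.4 CPM in ΔPod libraries, and at 5.33, 9.04 and 118 CPM in K2A. Usp2, which encodes a deubiquitinase that cycles in many organs, was at 77.6 to 133 CPM in WT, then at 11.4, 31.2 and 154 CPM in ΔPod libraries, and at 35.7, 55.7 and 246 CPM in K2A. These 3 had their highest values in ΔPod 3 and K2A 3, as the Per genes, Dbp and Ciart did. Gsk3b, a kinase that acts on clock proteins, was instead high in all 4 long-class libraries, at 51.6 to 59.9 CPM, and at 3.80 to 16.9 CPM in the short class.

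Relatives of the members were named after their values were seen. Nr1d2, the REV-ERBβ gene, did not follow Nr1d1. It was at 50.5, 67.7 and 50.6 CPM in WT, then at 133, 102 and 87.9 CPM in ΔPod libraries, and at 92.4, 93.6 and 107 CPM in K2A. All 6 mutant libraries lay above WT, with log2 fold changes of 0.94 (SE 0.27, edgeR adjusted p = 0.206) and 0.80 (SE 0.27, edgeR adjusted p = 0.286) that did not pass. Tef and Hlf encode the 2 other transcription factors of the DBP family. Tef was at 130.0 to 148 CPM in WT, then at 34.8, 61.9 and 270 CPM in ΔPod libraries, and at 77.9, 90.05 and 333 CPM in K2A. Hlf was at 47.3 to 95.7 CPM in WT, then at 15.5, 32.3 and 138 CPM in ΔPod libraries, and at 24.2, 32.0 and 177 CPM in K2A. Both had their highest values in K2A 3 and ΔPod 3, as Dbp did, and both were lower in the other 4 mutant libraries than in any WT library, which Dbp was not in K2A. Arntl2, with 8 to 68 counts, went the other way from Arntl in ΔPod. It was at 0.222 to 0.515 CPM in WT, at 2.46, 0.750 and 0.766 CPM in ΔPod libraries and at 0.508 to 0.930 CPM in K2A. Its log2 fold change of 1.79 in ΔPod (SE 0.59, edgeR adjusted p = 0.272) did not pass.

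Per1 is also induced by glucocorticoids and, with Per2, by signals that induce immediate early genes, so both lists were measured. Of 12 immediate early genes tested, edgeR called 1 in ΔPod against WT, Atf3 (2.20, SE 0.36, adjusted p = 0.0319), beside 0.985% of all tested genes. In edgeR 0 passed in K2A against WT, beside 0.847%, and 0 in K2A against ΔPod, beside 0%. At an unadjusted p below 0.05 were 6, 1 and 1 of the 12 in the 3 comparisons, beside 13.8%, 10.6% and 2.01% of all tested genes. DESeq2 called 2 in ΔPod (Atf3 and Nr4a1), 1 in K2A (Atf3) and 0 between the mutants, beside 5.52%, 5.03% and 0.105%. The 12 had median log2 fold changes of 1.53 in ΔPod, 0.73 in K2A and -0.88 between the mutants. All 12 were higher in ΔPod 3 than in both other ΔPod libraries, and 9 of 12 were in K2A 3. For this list too the share of all tested genes with that order was not counted, so these counts are no result about it. Fos reached 48.4 CPM in ΔPod 3, was at 6.07 CPM in K2A 3, and lay between 0.0988 and 0.774 CPM elsewhere. Egr1 was at 165 and 21.9 CPM in those 2 libraries and at 0.465 to 5.05 CPM elsewhere, and Nr4a1 at 75.7 and 15.5 CPM against at most 6.75 CPM. Jun was at 194 and 65.8 CPM against 13.5 to 34.4 CPM.

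Of 12 glucocorticoid-induced genes 0 passed in edgeR in ΔPod against WT, K2A against WT or K2A against ΔPod. The shares of all tested genes that passed were 0.985%, 0.847% and 0%. In that order 3, 4 and 5 of the 12 had an unadjusted p below 0.05, beside 13.8%, 10.6% and 2.01% of all tested genes. DESeq2 called 1 in ΔPod (Sgk1), 2 in K2A (Mt1 and Mt2) and 0 between the mutants, beside 5.52%, 5.03% and 0.105%. Of the 12, 6 were higher in ΔPod 3 and 7 in K2A 3 than in both other libraries of the group. Here too the share of all tested genes was not counted, so these counts are no result about the list. Fkbp5, which encodes a co-chaperone of the glucocorticoid receptor, was at 90.4, 71.9 and 113 CPM in WT, then at 4.12, 9.56 and 34.0 CPM in ΔPod libraries, and at 24.7, 30.8 and 199 CPM in K2A. Zbtb16, a transcription factor gene, was at 1.19 to 5.09 CPM in WT, then at 0.0723 to 2.32 CPM in ΔPod libraries, and at 6.32, 5.34 and 24.1 CPM in K2A. Pdk4, which encodes an inhibitor of glucose oxidation, was at 260.1 CPM in K2A 3 and at 10.7 to 67.0 CPM elsewhere. Lcn2 was at 1.58 to 2.63 CPM in WT, 0.927 to 1.78 CPM in ΔPod and 3.15 to 5.58 CPM in K2A. Its K2A libraries lay above all others, though it did not pass.

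Finally, the 11826 other tested genes that averaged 1 or more in log2 CPM were ranked by the likeness of their log2 CPM to Dbp and to Arntl over the 9 libraries, measured as Pearson's r and given as a description. Predicted genes and pseudogenes were left out. The genes most like Dbp were Dzip1 (0.97), Optn (0.97), Ccm2l (0.96), Hoxb3 (0.95) and Mapk8ip3 (0.95). Without ΔPod 3 and K2A 3 their values were 0.74, 0.48, 0.66, 0.88 and 0.53 over the remaining 7, so the likeness rested largely on those 2 libraries. Dzip1 reached 12.2 CPM in K2A 3, was at 7.03 CPM in ΔPod 3, and lay between 1.74 and 3.16 CPM elsewhere. From the list of 30, Bhlhe41, a repressor of E-boxes, ranked 7 at 0.95. The genes most like Arntl were Erp44 (0.94), Snx6 (0.93), Proz (0.93), Hsd3b2 (0.93) and Riox2 (0.92), with 0.84 to 0.91 over the remaining 7. Hsd3b2, a steroid dehydrogenase gene, was at 191 to 230.5 CPM in WT, then at 60.9 to 86.8 CPM in ΔPod libraries, and at 19.8 to 84.3 CPM in K2A. Like Arntl it was highest in the WT libraries and lowest in K2A 3. All of these r values share the same 9 libraries and their depth and length classes.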

How the data were processed

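Gene counts of 9 mouse kidney libraries were analysed. The authors deposited whole-number counts per gene symbol in 2 tables, each with the WT libraries and 1 mutant group. The submitters' processing notes list STAR 2.7.3a, featureCounts 2.0.1, Trim Galore 0.6.3 and build mm10, with no order. Polyadenylated RNA went into ScriptSeq v2 libraries, per the labels' protocols. The tables shared 52163 symbols, and 3 whose WT counts differed were left out.

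All 9 libraries entered 1 fit with a group term in edgeR 4.0.16 (R 4.3.3) after filterByExpr and TMM, with quasi-likelihood tests and Benjamini-Hochberg adjustment over 18067 genes at 0.05. An exact permutation test of 3 against 3 cannot go below 0.1 and was not used. Centred log2 CPM used a prior count of 2. Exon lengths came from GENCODE vM21 (97.4% of tested symbols matched), and the length class is the sign of the slope of centred log2 CPM on log2 length. Replicate libraries differed by at least 9.86 in chi-square per gene, above sampling noise. Scripts were tested on simulated data. Promoters came from RefSeq (GRCm38.p6).

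All members are named. Of each other list, called genes and the 4 with the widest range were named. Likeness took the 5 highest r. The members and lists were chosen with earlier results of these data known. Deviations of same-numbered libraries correlated at 0.76, 0.40 and 0.85 between the mutants, and for number 1 at -0.62 and -0.54 with WT. By the rule of every r over 0.1, numbers were taken to pair the mutants but not the comparisons with WT. That pairing rests on these data and not on the labels. Alternatives were other scaling factors, filters, DESeq2 1.42.0, fewer libraries, a replicate block, length terms and leaving out libraries.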

Additional observations from a re-analysis of the deposited data

How the results depend on the processing

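Depth limited Ciart most, with 4 to 31 counts in most libraries, and single libraries decided the sign of most repressor values. Members called in ΔPod against WT numbered 0, and 1 with DESeq2 (5.52% of all genes), without a filter (0.556%) or with the length class as a term (3.96%), 2 with the length slope as a covariate (14.1% of all genes), and 5 without both ΔPod 3 and K2A 3, a choice made after seeing the data (50.9% of all genes). In K2A against WT 1 member was called, and 2 with DESeq2 (5.03% of all genes), 6 with the length slope (15.8%) and 2 without both libraries (23%). Leaving out 1 library gave 0 to 1 in ΔPod and 0 to 0 in K2A. Of the wider list 1, 7 and 16 were called in ΔPod with DESeq2, the length slope and without both libraries, and 7 and 6 in K2A with the last 2 settings. Between the mutants 0 members and 0 of the wider list were called under every setting run. The cause was not tested. DESeq2 gave no adjusted p for Per2, Per3 and Dbp. Upper-quartile scaling moved the all-gene median of the log2 fold changes to 0.26 in ΔPod and 0.24 in K2A.

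Npas2 and Arntl were below WT in both mutants under every setting run, with log2 fold changes of -2.90 to -2.17 and -1.55 to -1.06 in ΔPod and of -3.75 to -3.15 and -2.09 to -1.41 in K2A. Other signs reversed. In ΔPod, Per2 became -0.011 with RLE factors, -0.014 with DESeq2, -0.016 without a filter and -0.27 with the length class, and Clock became 0.074 with the length slope. Without both ΔPod 3 and K2A 3, Per1, Per2, Per3, Dbp and Ciart were at -1.22, -2.44, -1.08, -0.48 and -1.25 in ΔPod, and Per1, Per2, Per3, Cry1 and Nr1d1 at -1.28, -1.07, -0.44, -0.39 and -1.68 in K2A, and Per1 at -0.056 between the mutants. Leaving out 1 library gave, in ΔPod, -1.17 to 0.98 for Per1, -2.39 to 0.51 for Per2, -1.04 to 1.52 for Per3, -0.44 to 1.99 for Dbp and -1.21 to 2.01 for Ciart. In K2A it gave -1.23 to 1.74 for Per1, -1.02 to 2.15 for Per2, -0.40 to 2.32 for Per3, -0.34 to 0.35 for Cry1 and -1.62 to 0.49 for Nr1d1. Between the mutants it gave -0.39 to 0.17 for Clock, -1.75 to 2.36 for Per1, -1.01 to 4.01 for Per2, -1.42 to 2.87 for Per3, -0.77 to 3.40 for Nr1d1, -0.87 to 2.84 for Dbp and -1.03 to 4.75 for Ciart. With Clock left out of the activators the difference became -1.66, -1.45 and -1.83 in WT 1, WT 2 and WT 3. In K2A 3 it went from 4.07 to 4.81, which is less than the SD of K2A only because K2A 3 itself widens that SD. The other phase values moved by less than the SD of their group.

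The replicate numbers did not pair the mutants with WT, since deviations of WT 1 correlated at -0.62 with ΔPod 1 and -0.54 with K2A 1. With the replicate block, members called stayed at 0, 1 and 0 (Npas2 in K2A), while all calls numbered 270 in place of 178 in ΔPod, and 232 in place of 153 in K2A. With that block Per1, Per2, Per3 and Ciart were at -0.36, -1.17, -0.027 and -0.23 in ΔPod, and Per1 and Nr1d1 at -0.013 and -0.75 in K2A.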
